A study of Bombyx mori with 12 samples.

Results

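Of the 17072 annotated genes counted in the silkworm Bombyx mori, 17 formed the group described here: genes whose transcripts were higher in tetramolters than in trimolters in each of 2 batches. They were chosen from measured values. Counts were scaled by library total to CPM (counts per 1e6) and taken as log2(CPM + 1). A gene had to average at least 2 CPM over the 12 libraries, which 9354 genes did. In each batch its tetramolter mean had to exceed its trimolter mean by at least 0.8 on that log2 scale, and its lowest tetramolter library had to lie above its highest trimolter library. Genes with the symbols of cuticle proteins, serpins, ribosomal proteins, detoxification enzyme families (all cytochrome P450 genes with Cyp symbols included) and Ubx were left out, which removed 2 genes, CPR61 and serpin-23. The differences between molting types are therefore given as a description, with no test.

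Poly(A) RNA came from pooled head and thorax tissue, taken as larvae molted out of the third instar. The strain was Guangri 3 (spelled Gurangri 3 in the sample labels), in which most larvae stop after the third molt. The 4 groups of 3 libraries were tetramolters and trimolters of batch 1 and tetramolters and trimolters of batch 2, all of that strain, fed on mulberry leaves and offspring of individual moths. The study reared larvae in spring and, warmer, in autumn. No sample label ties a season to a batch, so season, temperature, day length and sequencing batch cannot be told apart here. No label ties a library to 1 animal either, so the p-values measure the spread between libraries, which may be technical in part.

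In Bombyx mori the number of larval molts is set by hormones. A pulse of ecdysteroid from the prothoracic glands starts each molt, and juvenile hormone from the corpora allata, when present during that pulse, keeps the next stage larval. A tetramolter passes through 1 more larval stage before spinning, so at the molt sampled here a tetramolter is going to another larval instar that feeds and molts again, and a trimolter to its last. Molting also renews the cuticle, and insects defend themselves with antimicrobial peptides, which the fat body and epithelia make in response to microbes.

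Library totals ranged from 13420645 to 15611833 counts without the numbered additional loci, so 1 count was worth 0.0641 to 0.0745 CPM. Nervous system and muscle markers were found. The list for nervous system and eye held 15 genes: Elav, Syti, subunits of the nicotinic acetylcholine receptor and Rheb, with no opsin. Rheb was matched by the start of its symbol and is not a marker of either tissue. The 15 genes summed to 94.9 to 98.3 CPM in batch 1 tetramolters and 78.4 to 88.8 in batch 1 trimolters. In batch 2 they summed to 115 to 144 CPM in tetramolters and 111 to 143 in trimolters. The 5 muscle genes summed to 22362 to 23062 CPM in batch 1 tetramolters against 7519 to 18369 in batch 1 trimolters, and to 8999 to 10191 CPM in batch 2 tetramolters against 13096 to 15609 in batch 2 trimolters. The muscle sum was thus higher in tetramolters in batch 1 and lower in batch 2, with no overlap in either. The 2 haemocyte genes summed to 1273 to 1387 CPM in batch 1 tetramolters against 443 to 2200 in batch 1 trimolters, and to 2132 to 2591 in batch 2 tetramolters against 3349 to 4026 in batch 2 trimolters, lower in tetramolters without overlap in batch 2. The 7 midgut genes summed to 1780 to 2084 CPM in batch 1 tetramolters against 1707 to 4965 in batch 1 trimolters, and to 4248 to 5876 in batch 2 tetramolters against 3408 to 3936 in batch 2 trimolters, a sum that did not overlap in batch 2. The 7 fat body genes, 1 of them at 0 counts throughout, summed to 9.74 to 12.03 CPM in batch 1 tetramolters against 5.24 to 40.5 in batch 1 trimolters, and to 12.4 to 71.6 in batch 2 tetramolters against 7.82 to 20.8 in batch 2 trimolters. The 2 tracheal genes summed to 34.8 to 59.4 CPM over all libraries, and the 4 silk gland genes never exceeded 1.62 CPM. The part of these tissues in the results was not tested, and in whole tissue fewer cells of a type and less RNA per cell cannot be told apart.

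Few genes met the rule in both batches. Before any symbol was left out, it was met by 948 genes in batch 1, 10.1% of the 9354, by 1055 in batch 2, 11.3%, and by 19 in both, 0.203%. Without the 2 left out by symbol, 17 met it in both, 0.182%. The median difference over the 17 was 1.47 in batch 1 (0.91 to 2.70) and 1.19 in batch 2 (0.91 to 3.35), beside -0.10 and 0.08 over all 9354 genes. The difference was larger in batch 1 for 12 members and in batch 2 for 5. As a group these were weakly expressed genes: the median of their mean levels was 6.42 CPM (2.203 to 106), against 23.4 CPM over the 9354 genes, and 12 of the 17 averaged under 10 CPM.

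**Figure D1:**
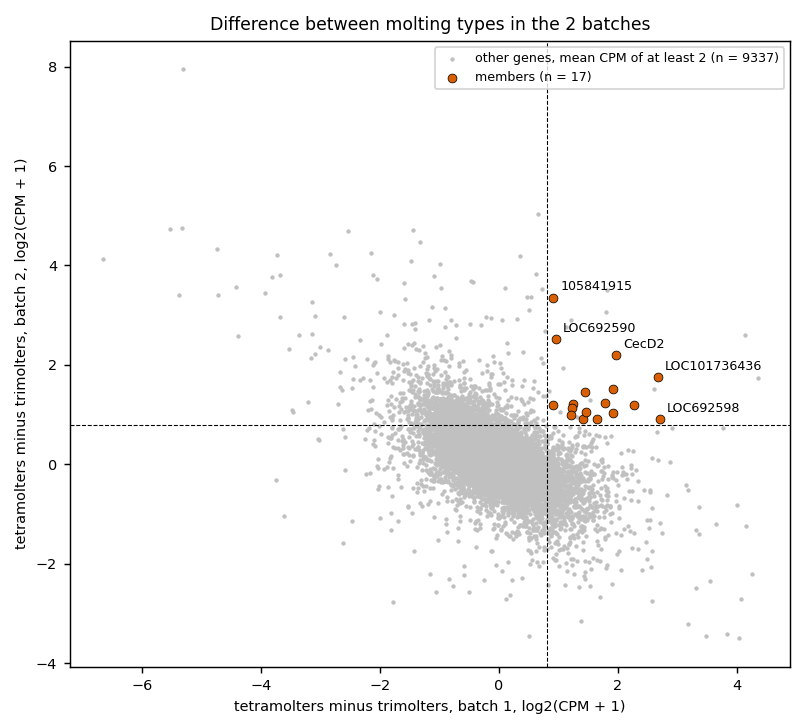
Difference between tetramolters and trimolters on the log2(CPM + 1) scale in batch 1 (horizontal axis) and batch 2 (vertical axis), with 1 point a gene for the 17 members (orange) and the other genes that average at least 2 CPM (grey); dashed lines mark 0.8. The members lie beyond both lines, up to 2.70 in batch 1 and 3.35 in batch 2, and grey points beyond both lines failed another condition of the rule.

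None of the 17 had a symbol other than a number. The RefSeq gene table of assembly ASM3026992v2 matched 16 of them, all protein coding, and listed a synonym for 1. That gene is LOC101740228, with the synonym CecD2, a cecropin, one of the short peptides of insects that kill bacteria by breaking their membranes. The member with the identifier 105841915 was not matched. The other 15 carry locus numbers only, so no function is given for them.

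CecD2 was at 7.69, 5.85 and 6.24 CPM in batch 1 tetramolters, against 0.606, 0.894 and 1.41 CPM in batch 1 trimolters. In batch 2 it was at 4.14, 33.0 and 19.6 CPM in tetramolters, against 2.47, 1.94 and 2.72 CPM in trimolters. The ratio of the means was 6.80 in batch 1 and 7.96 in batch 2. Every one of the 6 tetramolter libraries lay above every trimolter library, but in batch 2 tetramolter 1 came close to the trimolters while the other 2 tetramolters stood far above them. By position in the gene table its neighbour on one side is Enb2, an enbocin gene of the same kind of peptide, which averaged 0.452 CPM and was too low for the rule.

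The identifier 105841915 showed the same order of libraries in batch 2, with 2.00, 40.1 and 22.8 CPM in tetramolters against 0.325, 0.736 and 0.199 CPM in trimolters. In batch 1 it had 3.14, 2.15 and 2.70 CPM in tetramolters against 0.875, 0.596 and 1.41 CPM in trimolters. Its ratio of means was thus 2.77 in batch 1 and 51.5 in batch 2, and the second ratio rested on tetramolters 2 and 3, since tetramolter 1 was at the level of batch 1. LOC101746889 repeated the order with 1.80, 10.7 and 4.93 CPM in batch 2 tetramolters against 1.23, 1.00 and 0.861 CPM in batch 2 trimolters. In batch 1 it had 4.48, 3.30 and 2.83 CPM in tetramolters, against 4, 4 and 0 counts in the 3 trimolter libraries (0.269, 0.298 and 0 CPM). Of the 17 members, batch 2 tetramolter 1 was the lowest of its group for 6, tetramolter 2 for 4 and tetramolter 3 for 7.

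Since CecD2 is the 1 member with an annotated role, the other antimicrobial peptide genes of the table were set beside it, as a list made by symbol and synonym after the members were seen. Besides CecD2 it held 18 cecropins, attacins, gloverins, lebocins, moricins, defensins and enbocins, of which 11 averaged at least 2 CPM. In batch 2, 8 of the 11 met the rule (11.3% of all genes did), and 10 with batch 2 tetramolter 1 left out (1159 of the 9354 genes did). In batch 1, 0 of the 11 met it (10.1% of all genes did), and their differences ran from -1.88 to 0.77. However, CecA, CecB1, glv2, LOC101739536 and LOC101743336 reached the minimum of 2 CPM only through batch 2 tetramolters. The minimum itself thus favoured genes high in that group. Leaving out tetramolter 1, the lowest library of its group for 9 of the 11, also eased the rule. Nothing is therefore read from the batch 2 counts, alone or beside those of batch 1. CecA had 2.74, 28.8 and 28.6 CPM in batch 2 tetramolters against 0.909, 1.14 and 0.928 CPM in batch 2 trimolters. In batch 1 CecA had 0.769, 0.942 and 0.460 CPM in tetramolters against 0.404, 0.671 and 0.941 CPM in trimolters, groups that overlapped. Attacin1, whose product attacks the outer membrane of bacteria, had 12.9, 142 and 84.0 CPM in batch 2 tetramolters against 1.23, 2.54 and 3.91 CPM in batch 2 trimolters. In batch 1 it was lower in tetramolters, at 1.73, 2.96 and 1.45 CPM against 2.29, 6.93 and 6.99 CPM in trimolters, with an overlap. For 9 of the 11 genes batch 2 tetramolter 1 was the lowest library of its group, as it was for 39.5% of all 9354 genes, and for 10 tetramolter 2 was the highest (33.5% of all genes). Cecropin genes are close copies of each other, and it is not stated how reads shared between copies were assigned, so the level of a single cecropin is uncertain.

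**Figure D2:**
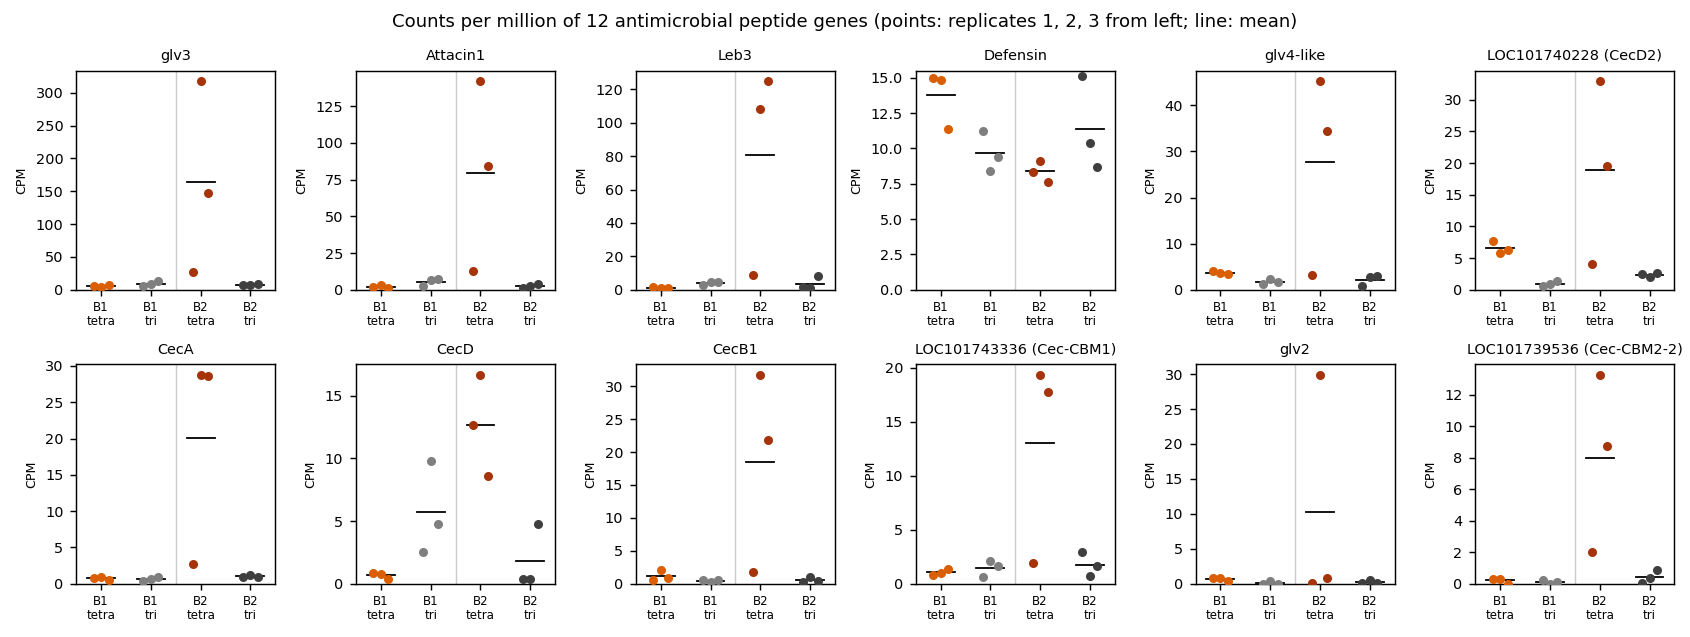
CPM (vertical axis) of the 12 antimicrobial peptide genes that average at least 2 CPM, CecD2 among them, in the 3 libraries of each group; points are replicates 1, 2 and 3 from the left, lines are means, B1 and B2 are the batches. CecD2 lies above the trimolters in both batches, with means of 6.60 against 0.971 CPM in batch 1 and 18.9 against 2.37 CPM in batch 2, where tetramolter 1 is close to them; Attacin1 is above the trimolters in all 3 tetramolters of batch 2 and overlaps them in batch 1.

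In the next 4 genes all 6 tetramolter libraries lay above all 6 trimolter libraries. LOC101736881 was at 16.1, 16.6 and 14.6 CPM in batch 2 tetramolters and at 14.3, 14.7 and 13.9 CPM in batch 1 tetramolters, ranges that overlapped. Its trimolters had 7.21, 5.75 and 6.16 CPM in batch 2 and 1.55, 1.49 and 4.10 CPM in batch 1. The smaller difference in batch 2, 1.19 against 2.26, thus went with a higher level in batch 2 trimolters, not with a lower one in tetramolters. LOC110385712 had 39.2, 38.5 and 37.3 CPM in batch 1 tetramolters against 11.9, 18.0 and 17.4 CPM in batch 1 trimolters. In batch 2 it had 42.5, 51.6 and 50.3 CPM in tetramolters against 20.8, 18.7 and 21.5 CPM in trimolters. The differences, 1.25 and 1.20, were nearly equal.

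LOC101746808, the second most abundant member, had 162, 116 and 109.6 CPM in batch 1 tetramolters against 36.9, 28.5 and 34.0 CPM in batch 1 trimolters. Its batch 2 levels were 116, 92.0 and 121 CPM in tetramolters against 47.1, 53.4 and 59.0 CPM in trimolters. Its 6 tetramolter libraries all lay above its 6 trimolter libraries, with a gap between 92.0 and 59.0 CPM. LOC101736148 had 39.1, 35.9 and 36.9 CPM in batch 1 tetramolters against 20.0, 16.2 and 22.6 CPM in batch 1 trimolters. In batch 2 it had 34.9, 30.4 and 27.99 CPM in tetramolters against 16.4, 12.2 and 10.998 CPM in trimolters. Its ratio of means was 1.90 in batch 1 and 2.36 in batch 2, and no tetramolter library fell into the trimolter range.

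Over the whole group, 12 of the 17 genes had all 6 tetramolter libraries above all 6 trimolter libraries. Of all 9354 genes, 142 had this order, 1.52%, but the rule had already fixed it for the members within each batch, so nothing is read from the count. The 5 without it were LOC101736436, LOC692590, LOC692598, LOC101736972 and LOC101737336.

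**Figure D3:**
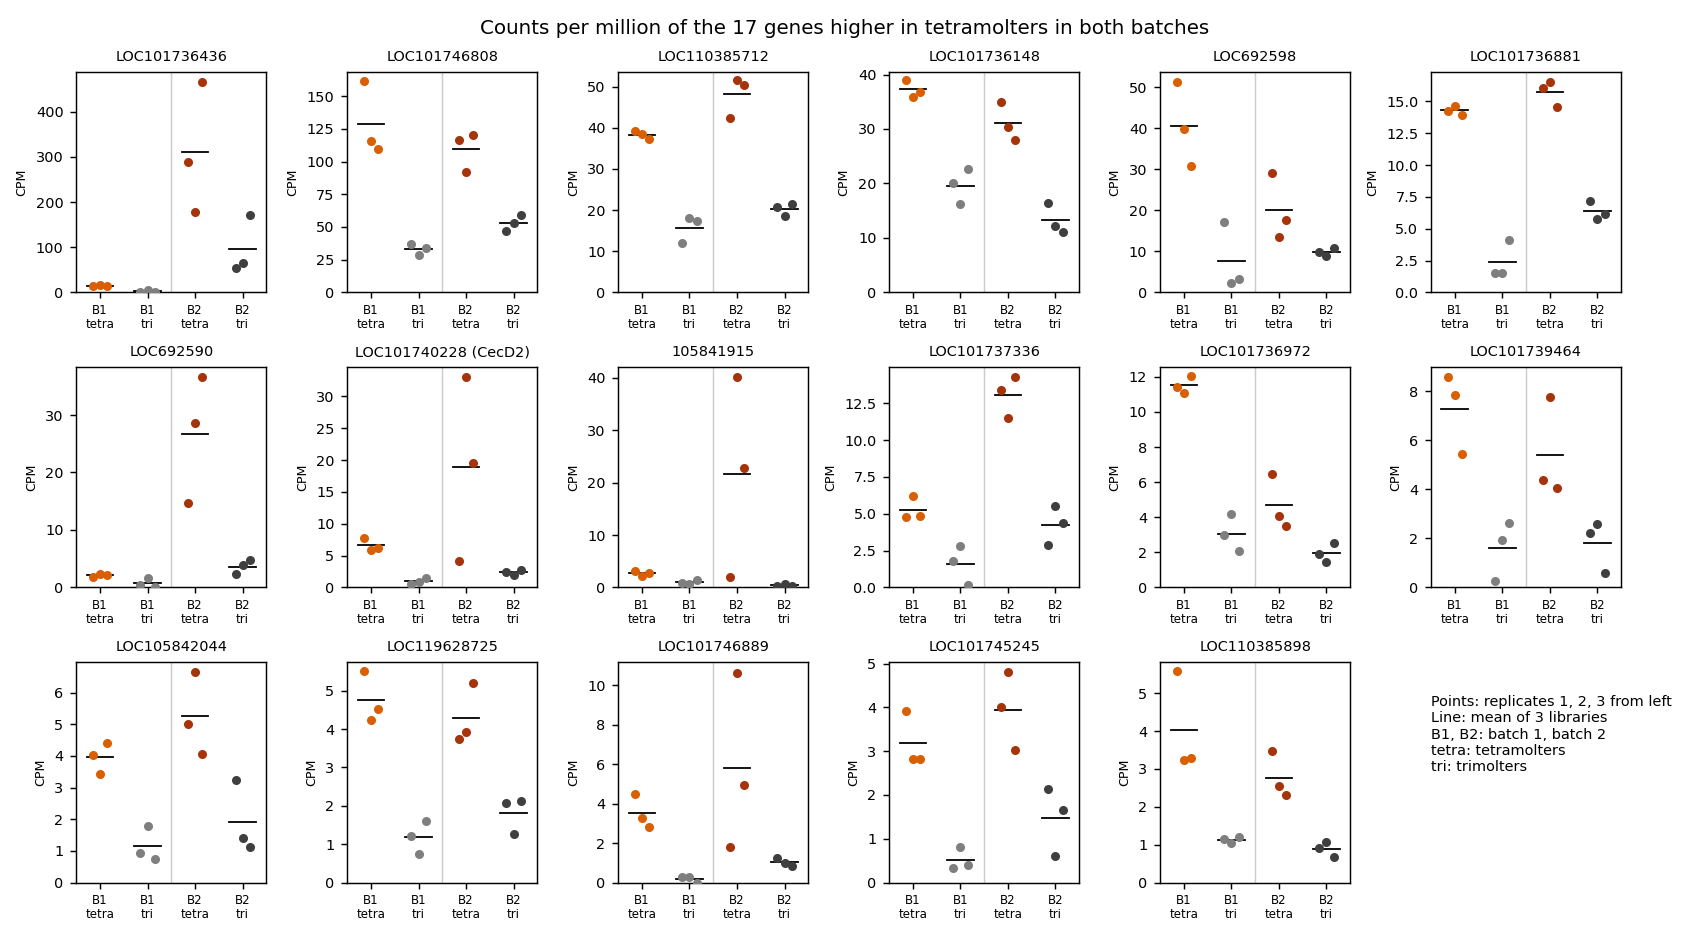
CPM (vertical axis, from 0, a scale of its own for each gene) of the 17 members in the 3 libraries of each group; points are replicates 1, 2 and 3 from the left, lines are means, B1 and B2 are the batches. In LOC101736881 the tetramolters of both batches sit between 13.9 and 16.6 CPM, while in LOC101736436 the batches differ more than the molting types.

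LOC101736436 was the member with the widest range. It had 13.1, 17.2 and 14.2 CPM in batch 1 tetramolters against 0.269, 5.89 and 0.739 CPM in batch 1 trimolters. Its batch 2 levels were 289, 177 and 465 CPM in tetramolters against 54.5, 64.6 and 171 CPM in trimolters. The batch 2 trimolters therefore exceeded the batch 1 tetramolters, and batch 2 trimolter 3 nearly reached batch 2 tetramolter 2. With library sizes scaled by trimmed means (TMM), which compare the bulk of genes rather than the totals, those 2 libraries overlapped and the gene no longer met the rule. LOC692590 had the same order of groups: 1.86, 2.29 and 2.17 CPM in batch 1 tetramolters against 0.404, 1.56 and 0.134 CPM in batch 1 trimolters, and 14.7, 28.6 and 36.5 CPM in batch 2 tetramolters against 2.27, 3.88 and 4.77 CPM in batch 2 trimolters. Its batch 1 trimolter values stood on 6, 21 and 2 counts.

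LOC692598 had 51.3, 39.9 and 30.7 CPM in batch 1 tetramolters against 17.2, 2.16 and 3.29 CPM in batch 1 trimolters. In batch 2 it had 29.2, 13.6 and 17.7 CPM in tetramolters against 9.74, 8.89 and 10.8 CPM in trimolters. Batch 1 trimolter 1 stood apart from its group and above batch 2 tetramolter 2. LOC101736972 had 11.4, 11.1 and 12.03 CPM in batch 1 tetramolters against 2.96, 4.17 and 2.08 CPM in batch 1 trimolters, and 6.47, 4.05 and 3.48 CPM in batch 2 tetramolters against 1.88, 1.47 and 2.52 CPM in batch 2 trimolters. LOC101737336 differed by nearly the same amount in both batches, 1.44 and 1.45, with 4.80, 6.19 and 4.86 CPM in batch 1 tetramolters against 1.82, 2.83 and 0.134 CPM in batch 1 trimolters. Its batch 2 levels were 13.4, 11.5 and 14.3 CPM in tetramolters against 2.86, 5.55 and 4.37 CPM in trimolters.

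The last 5 members were all weak, with means from 2.203 to 4.03 CPM. LOC101739464 had 8.58, 7.87 and 5.46 CPM in batch 1 tetramolters against 0.269, 1.94 and 2.62 CPM in batch 1 trimolters, and 4.40, 7.77 and 4.07 CPM in batch 2 tetramolters against 2.21, 2.61 and 0.596 CPM in batch 2 trimolters. LOC105842044 averaged 3.96 ± 0.491 CPM in batch 1 tetramolters against 1.16 ± 0.556 CPM in batch 1 trimolters, and 5.25 ± 1.31 CPM in batch 2 tetramolters against 1.93 ± 1.15 CPM in batch 2 trimolters (SD, n = 3 each). Its gap across batches was the narrowest of the 12, with a lowest tetramolter of 3.43 CPM and a highest trimolter of 3.25 CPM. LOC119628725 averaged 4.76 ± 0.664 CPM in batch 1 tetramolters against 1.19 ± 0.434 CPM in batch 1 trimolters, and 4.28 ± 0.793 CPM in batch 2 tetramolters against 1.82 ± 0.478 CPM in batch 2 trimolters. LOC101745245 averaged 3.19 ± 0.624 CPM in batch 1 tetramolters against 0.520 ± 0.262 CPM in batch 1 trimolters, and 3.95 ± 0.895 CPM in batch 2 tetramolters against 1.47 ± 0.787 CPM in batch 2 trimolters. LOC110385898 averaged 4.03 ± 1.34 CPM in batch 1 tetramolters against 1.13 ± 0.0840 CPM in batch 1 trimolters, and 2.77 ± 0.617 CPM in batch 2 tetramolters against 0.880 ± 0.205 CPM in batch 2 trimolters. At such levels the added 1 CPM shrinks the log2 difference, and 11 of the 17 genes had under 100 counts summed over the batch 1 trimolters, down to 8 for LOC101746889.

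Compared per length, on the authors' FPKM scale (fragments scaled by gene length and library size), LOC101746808 was the highest member with a median of 96.8 FPKM over 11 libraries, followed by LOC101736436 with 55.3 and LOC692598 with 22.2. CecD2, at 14.4 FPKM, came next, above its rank in CPM. The other members ran down to 1.42 FPKM for LOC105842044.

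Replicate spread differed between the groups. In batch 1 tetramolters 0 of the 17 genes varied by 2 times or more between their highest and lowest library, against 13 in batch 1 trimolters. In batch 2 it was 6 in tetramolters and 6 in trimolters. Low counts vary more by sampling alone, and 11 of the 17 had under 100 counts summed over batch 1 trimolters. The share over all genes was not worked out, so these counts are not read as a trait of the members. The batch 1 trimolter libraries also correlated least with each other over the 9354 genes (Pearson r of log2(CPM + 1) 0.928 to 0.966), against 0.994 to 0.996 in batch 1 tetramolters, 0.980 to 0.986 in batch 2 tetramolters and 0.985 to 0.988 in batch 2 trimolters. The part of that spread in the results was not tested.

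The genes nearest the 0.8 line show how sharply it fell. Just inside were LOC692598 (0.91 in batch 2), LOC101736148 (0.91 in batch 1) and LOC119628725 (0.91 in batch 2). Just outside were glv4-like (0.77 in batch 1 and 2.68 in batch 2), a gene of the gloverins, antibacterial proteins of moths, LOC101736970 (0.79 and 0.77) and LOC733013 (0.75 and 1.37). The glv4-like gene had 3.27, 45.3 and 34.4 CPM in batch 2 tetramolters against 0.779, 2.74 and 2.98 CPM in batch 2 trimolters, with tetramolter 1 the lowest of its group. In batch 1 it had 3.97, 3.57 and 3.42 CPM in tetramolters against 1.28, 2.38 and 1.61 CPM in trimolters. Of the 2 genes left out by symbol, CPR61 differed by 0.85 and 1.47 and serpin-23 by 1.08 and 1.93.

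None of the 17 belonged to the lists for the ecdysone response (7 genes, 7 of them averaging at least 2 CPM), juvenile hormone (15 and 12), insulin and metabolic hormones (5 and 2), the clock (3 and 3) or lipid metabolism (3 and 2), nor to a tissue marker list, all of which hold only genes with symbols. Of the 8 genes listed for ecdysteroid synthesis and inactivation, 0 could have been members, since each was left out by its Cyp symbol or averaged under 2 CPM. Cyp305b1 entered that list by the start of its symbol only, and no role in ecdysteroids is shown for it here. In batch 1 the rule was met by 0 genes of the ecdysone response, 1 of juvenile hormone, 1 of insulin and metabolic hormones, 0 of the clock and 1 of lipid metabolism, beside 10.1% of all genes. The batch 2 counts were 0, 1, 0, 0 and 1 in that order, beside 11.3%.

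In the order of genes along the chromosomes of the RefSeq table, 2 members lay close together: LOC101736148 and LOC105842044 had 1 gene between them, LOC110385686, a long noncoding RNA gene that averaged 2.36 CPM and differed by 0.23 in batch 1 and 1.70 in batch 2. The next closest pair, LOC101736436 and LOC101746808, had 37 genes between them. Of 15 direct neighbours of members that averaged at least 2 CPM, 3 were higher in tetramolters in both batches, 1 was lower in both and 11 differed in sign. None of the 15 reached 0.8 in both. Over all 9354 genes 14.2% were higher in tetramolters in both batches.

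The rule set no limit on differences between the batches. They come from the same libraries, though, and its minimum level, differences and lack of overlap all acted on those values. The differences between batches were tested with edgeR's quasi-likelihood test over 10721 genes, all 17 members among them. The adjusted p-values of members are therefore not independent of how the members were chosen. For 4 members the minimum rested on 1 group of tetramolters: 105841915, LOC101746889 and LOC101745245 averaged 1.35, 1.59 and 1.72 CPM over the 9 libraries other than batch 2 tetramolters, and LOC110385898 and LOC101745245 averaged 1.59 and 1.98 CPM over the 9 other than batch 1 tetramolters. Their changes in tetramolters are given as values only. LOC692590, at 2.15 CPM over the 9 libraries other than batch 2 tetramolters, stayed just above the minimum. In tetramolters, of the other 13 members, 3 rose in batch 2 relative to batch 1 (29.2% of all tested genes rose) and 2 fell (29.7% fell), while 8 did not pass. In trimolters 4 rose (7.49% of all genes) and 1 fell (8.03%), while 12 did not pass. These calls used a spread shared by all 4 groups, and in a fit to the trimolters alone 0 members passed. The median log2 fold change over the 17 was 0.71 in trimolters, beside -0.02 over all tested genes. The rule required trimolters to lie below tetramolters in each batch, and batch 1 trimolters spread most between replicates. The trimolter counts and median are thus only a description of the chosen genes, and the part of the selection in them was not tested. By group means, batch 2 tetramolters were the highest group for 10 members and batch 1 tetramolters for 7, and batch 1 trimolters were the lowest for 13 and batch 2 trimolters for 4.

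LOC101736436 rose most in both molting types. In tetramolters it was at 311 ± 145 CPM in batch 2 against 14.8 ± 2.15 CPM in batch 1 (log2 fold change 4.22, SE 0.73, edgeR adjusted p = 0.000438). In trimolters it was at 96.6 ± 64.3 CPM in batch 2 against 2.30 ± 3.12 CPM in batch 1 (5.45, SE 0.82, edgeR adjusted p = 0.00254). The groups overlapped in neither, and the second call was lost in a fit to the trimolters alone (edgeR adjusted p = 0.0545). LOC692590 rose in tetramolters, at 26.6 ± 11.03 CPM in batch 2 against 2.10 ± 0.222 CPM in batch 1 (3.49, SE 0.49, edgeR adjusted p = 0.000103). In trimolters it rose by 2.43 (SE 0.59, edgeR adjusted p = 0.0202), a call lost in a fit to the trimolters alone, in limma-voom and without batch 1 trimolter 3 or batch 2 trimolter 2 or 3 (adjusted p of up to 0.116).

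The identifier 105841915 had a log2 fold change of 2.84 (SE 0.74) in tetramolters, although tetramolter 1 of batch 2 was below all 3 of batch 1. In trimolters it changed by -1.17 (SE 1.11, edgeR adjusted p = 0.496). CecD2 rose in batch 2 tetramolters by 1.34 (SE 0.52, edgeR adjusted p = 0.0416), with overlapping groups and a call lost in 12 of the alternatives, among them limma-voom and each fit without a batch 1 tetramolter or a batch 2 trimolter, or without batch 2 tetramolter 2 or 3 (adjusted p of up to 0.263). In trimolters its 3 batch 2 libraries lay above the 3 of batch 1, but the change of 1.31 (SE 0.67) did not pass (edgeR adjusted p = 0.199).

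LOC101736972 had the largest fall. It was at 4.67 ± 1.59 CPM in batch 2 tetramolters against 11.5 ± 0.473 CPM in batch 1 tetramolters (edgeR log2 fold change -1.46, SE 0.29, adjusted p = 0.00107), and in trimolters it changed by -0.62 (edgeR adjusted p = 0.207). LOC101736148 fell in both molting types, by 0.43 in tetramolters (edgeR adjusted p = 0.0359) and by 0.54 in trimolters (edgeR adjusted p = 0.0455). Both calls lay near the threshold. The tetramolter call was lost with no filter and without any 1 of the batch 1 tetramolters or batch 2 tetramolter 2 or 3 (adjusted p of up to 0.13). The trimolter call was lost in 11 alternatives: upper quartile factors, a fit to the trimolters alone (adjusted p = 0.163), and the fits without any 1 of the batch 1 tetramolters, batch 2 tetramolter 2 or 3, batch 1 trimolter 1 or 3, or batch 2 trimolter 2 or 3. LOC110385898 had a log2 fold change of -0.70 (SE 0.28) in tetramolters.

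Among trimolters alone, LOC101736881 and LOC101746808 rose in batch 2. LOC101736881 was at 6.37 ± 0.750 CPM in batch 2 against 2.38 ± 1.49 CPM in batch 1 (log2 fold change 1.44, SE 0.30, edgeR adjusted p = 0.00923). In tetramolters its change was -0.03 (SE 0.26, edgeR adjusted p = 0.937). LOC101746808 was at 53.2 ± 5.95 CPM in batch 2 trimolters against 33.1 ± 4.29 CPM in batch 1 trimolters (0.71, SE 0.17, edgeR adjusted p = 0.0201), and in tetramolters it changed by -0.40 (SE 0.17, edgeR adjusted p = 0.0605). A fit to the trimolters alone lost both trimolter calls (adjusted p = 0.0983 for LOC101736881 and 0.0667 for LOC101746808), and the call of LOC101746808 was also lost without batch 1 trimolter 3 or batch 2 trimolter 2 or 3 (adjusted p of up to 0.0837). Whether a change between batches differed by molting type is the same question as whether the 2 differences that chose the genes were unequal, and was not tested.

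**Figure D4:**
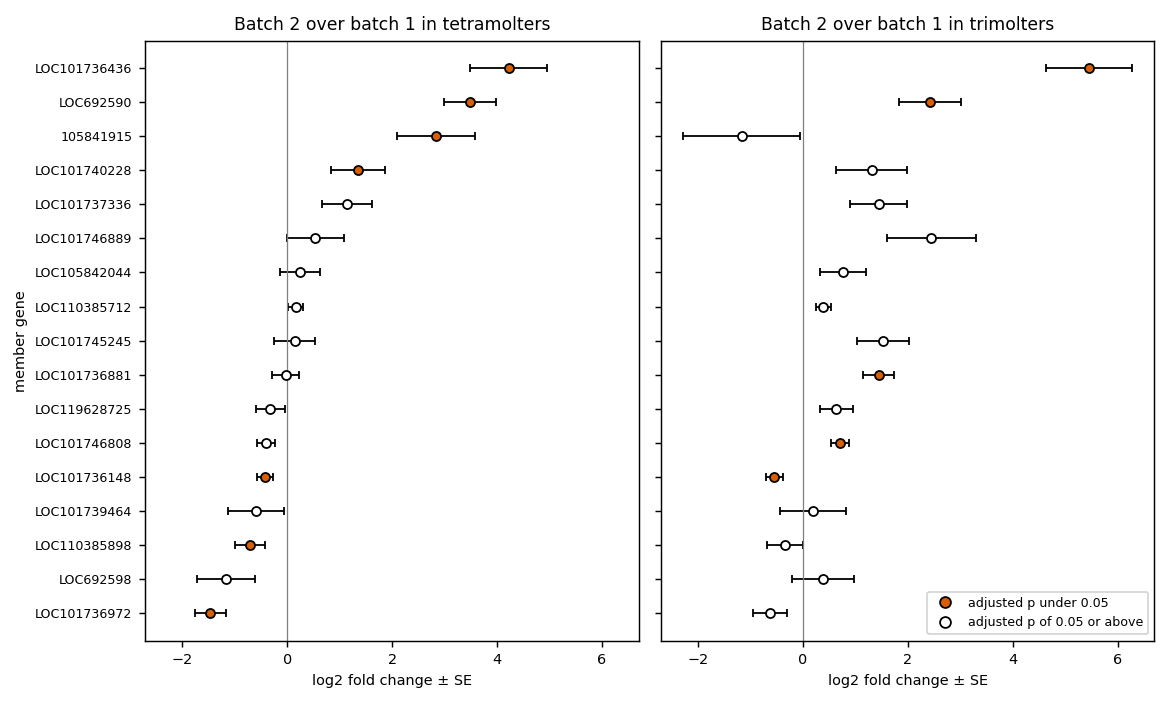
Log2 fold change of batch 2 over batch 1 (horizontal axis) with its standard error for the 17 members, in tetramolters (left) and trimolters (right). Filled points passed an edgeR adjusted p of 0.05. Of the 4 members whose minimum rested on 1 group, 105841915 and LOC110385898 are filled on the left, and nothing is read from that. LOC101736436 has the largest rise in both panels, 4.22 in tetramolters and 5.45 in trimolters, and LOC101736972 the largest fall in tetramolters, -1.46.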

How the data were processed

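RNA with poly(A) tails was sequenced from both ends in 12 libraries of 4 groups, taken from the labels for molting type and batch. Per the submitters' processing notes, the authors used DESeq2 1.38.3 and StringTie 2.2.1, with HISAT2 2.2.1 and Trimmomatic 0.39 (no order or role is given). No label or header names the counter, genome build, annotation or strand setting. The counts deposited by the authors are whole numbers per gene and were not scaled. The deposited FPKM table holds the authors' values scaled by length and depth. Its column for batch 1 trimolter 2 was empty, the 1 column left unused.

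Of 17583 rows, 511 numbered additional loci (0.21% to 0.264% of the counts of a library) were left out, and 14945 of the other 17072 matched RefSeq assembly ASM3026992v2, used for names and gene order only. The members, lists and tests were chosen with earlier results of these data known. Both batch contrasts were tested on counts with edgeR 4.0.16 in R 4.3.3 (TMM factors, filterByExpr, quasi-likelihood F-test, 1 mean per group, all 12 libraries in 1 fit, 2-sided, Benjamini and Hochberg, threshold 0.05). Standard errors are the fold change over the root of F. CPM uses library totals, and SDs are over 3 libraries. Alternatives used DESeq2 1.42.0, limma 3.58.1, other factors, filters and fits, and each library left out. All replicate pairs differed beyond sampling noise (mean chi-square per gene of at least 3.31, where noise gives about 1). The fit was tested on simulated counts with 200 genes changed by 1 on the log2 scale. It recovered 53% of them for the tetramolter contrast and 59% for the trimolter contrast. Of the genes called in the simulation, 6.19% and 5.6% were false. A member that did not pass may therefore still have changed. The simulation gave each gene the same spread in all 4 groups, whereas batch 1 trimolters spread most in the data. It also changed only 200 genes, against 6308 and 1664 called in the data. Its percentages thus do not measure the share of false calls among the genes called here. The rule for named genes covered members with a symbol, the largest differences, genes at the line, the largest batch changes and the highest FPKM. Since no member had a symbol, all 17 are named. Antimicrobial genes were added after their values were seen. Promoter motifs and protein sequences, planned for, were not analysed here. Counts carry no molecular identifiers, so statements on depth cover counting error only.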

Additional observations from a re-analysis of the deposited data

How the results depend on the processing

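The 17 genes became 11 with a minimum of 5 CPM and 10 with a difference of at least 1. With TMM library sizes, a pseudocount of 0.5, no minimum or the authors' FPKM they were 18, 20, 19 and 19. Leaving out 1 library gave 15 to 27, with 27 without batch 2 trimolter 3. In all 18 alternatives 5 genes met the rule: LOC101746808, LOC110385712, LOC101736881, LOC101737336 and CecD2.

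For batch 2 over batch 1 in tetramolters, 6308 genes were called (5526 to 6842 without 1 library). Of the 13 members whose minimum did not rest on 1 tetramolter group, 3 rose and 2 fell (29.2% and 29.7% of all tested genes did). Under other settings only all 17 were counted, of which 4 rose (3 to 5) and 3 fell (1 to 4) here. Those counts show how far the processing moved them, and nothing else is read from them. The fall was 1 with no filter, 1 without batch 1 tetramolter 1 or batch 2 tetramolter 2 or 3, and 5 with replicate number as a block. In trimolters 1664 genes were called, but 135 in a fit to the trimolters alone, where 0 members passed. The count was 2594, 2723 and 716 without batch 1 trimolter 1, 2 and 3, and 917, 893 and 784 without batch 2 trimolter 1, 2 and 3. Members that rose there were 4 (7.49% of all tested genes rose and 8.03% fell). They were 7 in DESeq2 and 2 to 7 without 1 library (7 without batch 1 trimolter 2, 2 without batch 1 trimolter 3 or batch 2 trimolter 3). The 1 that fell, LOC101736148, was not called with upper quartile factors (0) or in 9 of the fits without 1 library (0 to 1).

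With the replicate block, 6219 and 1626 genes were called in tetramolters and trimolters, and 4 and 1 members rose and fell in trimolters. Between the batches, libraries of the same molting type and number did not deviate together (correlations of -0.05 to 0.11).

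No called change turned sign. Among those not called, these did: in tetramolters LOC101736881 (-0.058 to 0.036 over the fits without 1 library, positive without batch 2 tetramolter 3), LOC101745245 (-0.019 to 0.32) and LOC101746889 (-0.24 to 0.97), both negative without batch 2 tetramolter 2, and in trimolters LOC692598 (-0.041 to 1.87, negative without batch 1 trimolter 2) and LOC101739464 (-0.32 to 0.74, negative without batch 1 trimolter 1 or batch 2 trimolter 2). The cause of these shifts was not tested. Upper quartile factors moved the median change of all genes in tetramolters to -0.13, against -0.02 with TMM. Depth was low for some members: 11 of the 17 had under 100 counts summed over batch 1 trimolters.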

Other observations

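A few genes with symbols met the rule under another setting and not under the one used. The gene glv4-like did so in 5 settings, among them TMM library sizes and the authors' FPKM. PGRP-S5, which encodes a peptidoglycan recognition protein of the kind that senses bacterial cell walls, did so without batch 2 tetramolter 1. It had 42.6, 38.7 and 39.6 CPM in batch 1 tetramolters against 10.03, 14.1 and 7.53 CPM in batch 1 trimolters. In batch 2 it had 7.67, 29.7 and 13.5 CPM in tetramolters against 9.41, 9.10 and 10.1 CPM in trimolters. Batch 2 tetramolter 1 lay below the trimolters. Since the gene was picked for meeting the rule without that library, nothing is read from its low level. The difference was 1.88 in batch 1 and 0.57 in batch 2.

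The gene Cop met the rule without batch 2 tetramolter 3 or without batch 2 trimolter 2. It had 13.3, 13.9 and 13.2 CPM in batch 1 tetramolters against 12.6, 0 and 0 CPM in batch 1 trimolters, and 8.54, 6.60 and 4.47 CPM in batch 2 tetramolters against 0, 6.15 and 1.33 CPM in batch 2 trimolters. These genes were chosen after their values were seen, and none of the differences was tested.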
